A study of Mus musculus with 14 samples.

Results

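The genes described are 10 genes of immunoglobulin A (IgA) transfer into milk and of the B and plasma cells that make the antibody, found by their symbols among 20550 genes listed in the deposited expression tables. *Pigr*, *Ccl28* and *Fcgrt* are grouped here as the transfer side, although the product of *Fcgrt* binds IgG rather than IgA. *Jchain*, *Mzb1*, *Pou2af1*, *Tnfrsf17*, *Cd79a*, *Cd79b* and *Ccr10* belong to the B cell and plasma cell side. The study asked how the super-enhancer and promoter of the milk protein gene *Wap* act on the neighbouring gene *Tbrg4*. The values come from total RNA of whole mammary glands on day 10 of lactation (L10), in 2 samples labelled replicate 1 and replicate 2. Both were WT/wTbrg4, that is Wap-Tbrg4 heterozygous. Each sample is read here as 1 mouse, although the labels do not say how many animals gave it. Each mouse carried 1 wild type allele and 1 Wap-Tbrg4 allele, a deletion made by CRISPR-Cas9 in C57BL/6 mice that joins *Tbrg4* to the *Wap* promoter and its super-enhancer. No other genotype was analysed here, so the values describe this genotype and carry no comparison with wild type mice, and the 12 ChIP-seq samples of the series were not analysed here either. The age of the mice is not given in the sources used here, and the tissue was not sorted.

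During lactation, plasma cells that settle in the mammary gland secrete dimeric IgA held together by the joining chain. The polymeric immunoglobulin receptor on the basal side of the secretory epithelium binds it, carries it through the cell and releases it into milk with a piece of the receptor attached. The chemokine CCL28, made by the epithelium, attracts IgA plasma cells that carry its receptor CCR10, while FCGRT is the neonatal Fc receptor, which binds IgG and pairs with beta-2 microglobulin.

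The promoter sequences of the 4 genes on which the level comparisons turn, both sides of the transfer included, are shown so that they can be read beside the levels. Each is the 250 bases before the transcription start, written 5′ to 3′ on the strand of the gene, from RefSeq on the build GRCm38.p6. The positions are chr1:130826434-130826683 on the plus strand for *Pigr*, chr13:119623569-119623818 on the plus strand for *Ccl28*, chr5:88527898-88528147 on the minus strand for *Jchain* and chr9:51213440-51213689 on the plus strand for *Pou2af1*. Capitals mark a motif match, which is CACGTG (E-box) in *Pigr* and TGACGT (the start of the cyclic AMP response element, CRE) in *Pou2af1*.
Pigr: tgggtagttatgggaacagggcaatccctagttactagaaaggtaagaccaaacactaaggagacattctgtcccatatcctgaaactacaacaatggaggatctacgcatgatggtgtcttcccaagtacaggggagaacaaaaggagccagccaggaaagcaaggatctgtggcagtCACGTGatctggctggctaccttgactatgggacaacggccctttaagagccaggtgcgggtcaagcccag
Ccl28: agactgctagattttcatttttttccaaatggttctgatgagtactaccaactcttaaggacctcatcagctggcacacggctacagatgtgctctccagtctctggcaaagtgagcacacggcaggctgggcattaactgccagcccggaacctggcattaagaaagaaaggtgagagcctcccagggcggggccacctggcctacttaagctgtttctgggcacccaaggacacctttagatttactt
Jchain: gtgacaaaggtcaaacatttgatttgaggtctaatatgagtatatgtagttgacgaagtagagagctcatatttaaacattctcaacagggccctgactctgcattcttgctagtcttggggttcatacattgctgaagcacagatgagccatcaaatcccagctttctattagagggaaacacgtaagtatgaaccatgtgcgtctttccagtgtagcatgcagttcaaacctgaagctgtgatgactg
Pou2af1: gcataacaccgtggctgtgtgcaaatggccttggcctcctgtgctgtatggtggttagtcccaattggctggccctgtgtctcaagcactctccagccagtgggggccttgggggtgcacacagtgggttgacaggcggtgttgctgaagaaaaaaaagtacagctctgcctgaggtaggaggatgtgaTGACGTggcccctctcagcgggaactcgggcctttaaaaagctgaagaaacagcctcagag

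Promoter windows of 250 bases before and 50 bases after the start were taken from RefSeq for 7 of the 10 genes. *Ccr10* and *Cd79b* had none, and any window on chromosome 18, where *Mzb1* lies, was left out for these genes. The windows were searched on both strands for the octamer ATGCAAAT, the STAT motif TTCNNNGAA, and the CRE TGACGTCA. They were also searched for the TATA box, written TATAAA. The E-box and TGACGT were added after the windows were seen, and every whole CRE also holds TGACGT. The *Pigr* window held the STAT match TTCCTGGAA at positions 40 to 48 after the start, and its E-box lay at positions -71 to -66. A STAT match was present in 8.3% of 32851 promoter windows of the same length and an E-box in 7.15%. TGACGT, present in 7.51% of windows, was at -61 to -56 in *Pou2af1* and at -81 to -76 in *Fcgrt*, and TATAAA, present in 13.6%, was at -114 to -109 in *Tnfrsf17*. The windows of *Ccl28*, *Jchain* and *Cd79a* held none of the letters searched, and no window of the 7 held the octamer (1.74% of windows) or the whole CRE (1.79%).

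*Pigr*, the receptor that carries polymeric IgA and IgM across the epithelium, was the highest of the 10 genes. Expression is given as FPKM, fragments scaled to the length of the exons or introns of a gene and to library size, which the authors calculated separately for exons and for introns. *Pigr* exons reached 503.8 FPKM in replicate 1 against 388.8 in replicate 2 (446.3 ± 81.3, SD, n = 2), rank 48 of the 20515 genes with a usable symbol. Its 11 exons span chr1:130826684-130852249. The intron FPKM of *Pigr*, in contrast, was only 2.9 and 1.3, so that the introns reached 0.576% and 0.334% of the exon level.

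*Ccl28*, the chemokine for CCR10-bearing plasma cells, was second. Replicate 1 had 150.5 exon FPKM and replicate 2 had 278.1 (214.3 ± 90.2, SD, n = 2), so the mice were 1.85-fold apart. Intron FPKM of *Ccl28* was nearly identical in the mice, 11.8 and 11.6, and was the 44th highest of all genes. *Ccl28* thus had fewer exon reads than *Pigr* but more intron reads, with an intron level 4.07-fold that of *Pigr* in replicate 1 and 8.92-fold in replicate 2. The exon ratio of *Pigr* to *Ccl28* was 3.35 and 1.40, above 1 in both mice. The 3 exons of *Ccl28* lie within chr13:119623819-119654359, with 26801 bp of introns.

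*Fcgrt*, the neonatal Fc receptor, was far lower than both. It had 10.5 exon FPKM in replicate 1 against 3.9 in replicate 2 (7.2 ± 4.67, SD, n = 2), and its intron FPKM was 0.2 in each mouse. *Pigr* exceeded *Fcgrt* 48.0-fold in replicate 1 and 99.7-fold in replicate 2. *B2m*, which encodes the light chain partner of FCGRT and of the MHC class I molecules, moved the other way between the mice, with exon FPKM of 202.4 and 432.8, so that *B2m* exceeded *Fcgrt* 19.3-fold in replicate 1 and 111-fold in replicate 2. *Fcgrt* lies on the minus strand of chromosome 7, at chr7:45092993-45103822, in 7 exons.

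*Jchain*, the joining chain of dimeric IgA and pentameric IgM, was the third gene and the only highly expressed one of the B and plasma cell side. The exon level was 107.4 FPKM in replicate 1, against 89.3 in replicate 2 (98.4 ± 12.8, SD, n = 2), and intron FPKM was 0.5 and 1.3. *Pigr* exceeded *Jchain* 4.69-fold in replicate 1 and 4.35-fold in replicate 2 (4.52 ± 0.238, SD, n = 2). Of the summed exon FPKM of the 7 B and plasma cell genes, *Jchain* made up 93.1% in replicate 1 and 92.8% in replicate 2. The sums were 115.3 and 96.2 with it, and 7.9 and 6.9 without it. *Jchain* has 4 exons at chr5:88519809-88527897. Of 14 immunoglobulin constant genes looked up by symbol, *Igll1* alone was found among the genes with a usable symbol, at 0.0 in both mice. *Igha* was not found, so no level of the IgA heavy chain is given.

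*Mzb1*, a chaperone of the endoplasmic reticulum that aids immunoglobulin secretion, and *Pou2af1*, the octamer coactivator of B cells, were low. *Mzb1* had exon FPKM of 2.6 and 2.2, and intron FPKM of 0.2 in each mouse. *Pou2af1* had exon FPKM of 2.7 in each mouse, and intron FPKM of 0.3 and 0.5. *Jchain* exceeded *Mzb1* 41.3-fold in replicate 1 and 40.6-fold in replicate 2, and *Pou2af1* 39.8-fold and 33.1-fold. *Mzb1* has 4 exons at chr18:35647265-35649367 on the minus strand, and *Pou2af1* has 5 exons at chr9:51213690-51240079 on the plus strand.

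*Tnfrsf17* encodes BCMA, a survival receptor of long-lived plasma cells. The exons gave 0.9 FPKM in replicate 1 and 1.0 in replicate 2, the introns 0.0 and 0.1. *Cd79a* and *Cd79b* encode the signalling chains of the B cell receptor. *Cd79a* was listed at 0.0 in replicate 1 and at 0.4 in replicate 2, and *Cd79b* at 1.2 and 0.5. *Ccr10*, the receptor for CCL28, was listed at 0.5 and 0.1. *Ccl28* thus exceeded its receptor 301-fold in replicate 1 and 2781-fold in replicate 2, a range that rests on *Ccr10* values near the 0.1 step of the deposited numbers. *Tnfrsf17* lies at chr16:11313809-11320068, *Cd79a* at chr7:24897497-24901858, *Cd79b* at chr11:106311341-106314562 and *Ccr10* at chr11:101172998-101175443. The introns of *Ccr10*, *Cd79a* and *Cd79b* were at 0.0 in both mice. On the opposite strand *Cntnap1*, at exon FPKM of 0.4 in each mouse, overlaps *Ccr10* over 827 bp (chr11:101174617-101175443), and the strand setting of the counting is not given in the sources used here.

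By mean exon FPKM the order was *Pigr*, *Ccl28*, *Jchain*, *Fcgrt*, *Pou2af1*, *Mzb1*, *Tnfrsf17*, *Cd79b*, *Ccr10* and *Cd79a*. In neighbouring pairs down to *Tnfrsf17* the ranges of the mice did not overlap, although *Pou2af1* and *Mzb1* differed by only 1.13-fold in their means. These ranges set the unscaled FPKM of the mice against each other. The order down to *Tnfrsf17* was also the same within each mouse, where that scale plays no part. From *Tnfrsf17* on, the range of each gene overlapped that of the next. Within each mouse *Cd79b* was still above *Ccr10*, at 1.2 against 0.5 in replicate 1 and 0.5 against 0.1 in replicate 2. *Tnfrsf17* and *Cd79b* switched order between the mice, as did *Ccr10* and *Cd79a*. *Tnfrsf17* still lay above *Ccr10* and *Cd79a* in both mice without overlap, as did *Cd79b* above *Cd79a*. In all, 6 of the 10 genes had exon FPKM of at least 1 in both mice, which 45.6% of all genes did, and 3 of the 7 B and plasma cell genes did. In RNA of an unsorted gland, fewer cells of a type and less RNA per cell cannot be told apart.

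**Figure D1:**
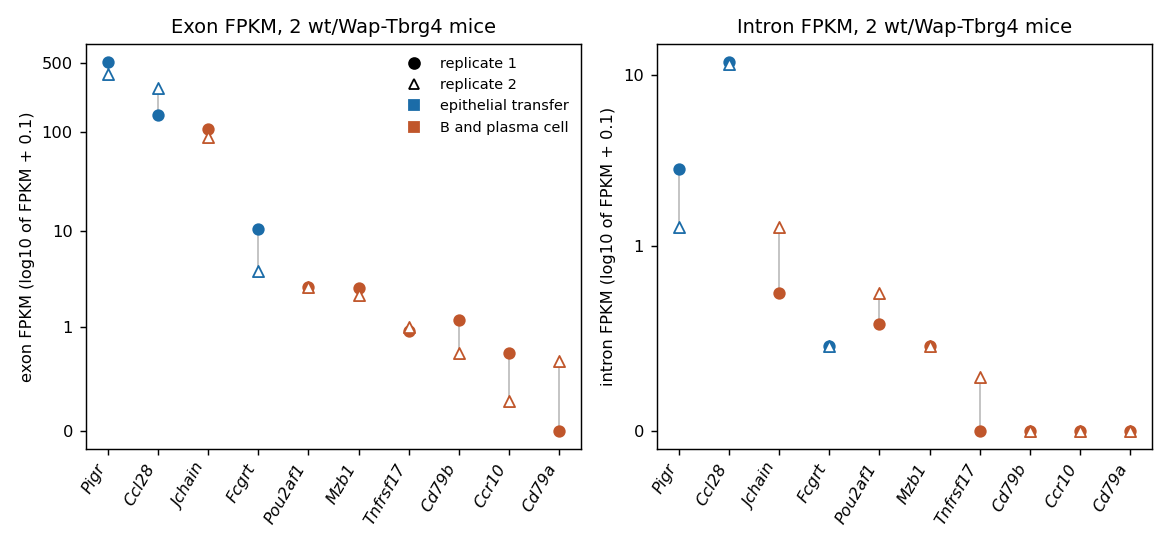
Exon FPKM (left) and intron FPKM (right) of the 10 genes in each mouse, both on log10(FPKM + 0.1) axes, with circles for replicate 1 and triangles for replicate 2, blue for the epithelial transfer genes and orange for the B and plasma cell genes. *Pigr*, *Ccl28* and *Jchain* lie highest on the exon axis, and on the intron axis *Ccl28* lies above *Pigr*.

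The introns ranked the genes differently from the exons. Over the 9535 genes that had 1 exon FPKM or more on average and a mean intron FPKM above 0, the mean intron level was a median of 6.52% of the mean exon level. *Pigr*, at 0.471%, fell in the lowest 0.965% of these genes and *Jchain*, at 0.915%, in the lowest 2.53%. *Ccl28* was at 5.46% and *Mzb1* at 8.33%, close to the median, and *Pou2af1* at 14.8%. *Jchain* had 0.466% in replicate 1 and 1.46% in replicate 2, and *Ccl28* had 7.84% and 4.17%, with exon levels 1.85-fold apart over nearly equal intron levels. The *Jchain* intron values of 0.5 and 1.3 and the lower ones are coarse, since the deposited values carry 1 decimal.

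**Figure D2:**
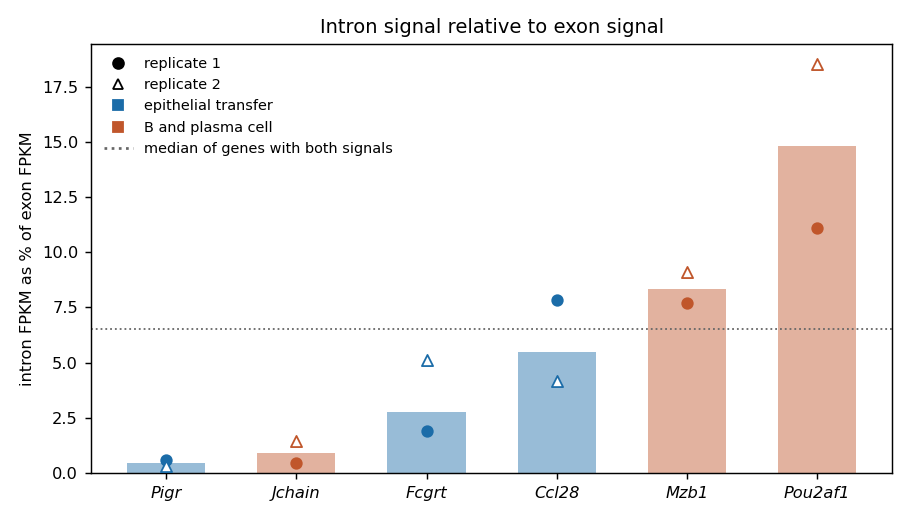
Intron FPKM as a percentage of exon FPKM for the 6 genes with intron FPKM above 0 in both mice, where bars are the mean intron FPKM over the mean exon FPKM of the 2 mice and points are the single mice. The dotted line is the median of 9535 genes, 6.52%, and *Pigr* and *Jchain* lie far below it while *Ccl28* and *Mzb1* lie near it.

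To see how far the mice lay apart, exon FPKM + 1 of replicate 2 was divided by that of replicate 1 and put on a log2 scale, for 9845 genes whose exon FPKM averaged 1 or more. An exact permutation test of 2 mice could not give a p below 0.5, so none was run and these differences are descriptions. More than 2-fold apart were 581 of the 9845 genes, or 5.9%, of which 475 (4.82% of all tested) were higher in replicate 1. The share of higher-in-replicate-1 genes among the calls was 81.8%, against 99.9% when both libraries were scaled to the same sum and 41.5% after the GC correction. *Fcgrt* was the only one of the 6 genes passing the filter beyond 2-fold, lower in replicate 2 by -1.23 on the log2 scale, a 2.69-fold difference of FPKM. As 1 of 6 this is 16.7%, and a single gene gives no reading against the 5.9%. *Ccl28* was at 0.88, higher in replicate 2, *Pigr* at -0.37, *Jchain* at -0.26, *Mzb1* at -0.17 and *Pou2af1* at 0.00. The median over the 3 transfer genes was -0.37 and over the 3 B and plasma cell genes that passed -0.17, beside -0.08 for all genes tested.

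All exon FPKM of a mouse added up to 852961 for replicate 1 but 1788119 for replicate 2, and scaling both to the same sum changes a log2 ratio by -1.07 where the pseudocount carries no weight and by less in low genes. The median over all genes went from -0.08 to -0.92. *Ccl28* was then at -0.18 and turned direction against the unscaled 0.88, but it lay above the median over all genes both times. *Fcgrt* was at -2.06, *Pigr* at -1.44 and *Jchain* at -1.32, all below the scaled median of -0.92, as they were below the unscaled median. The log2 ratios fell as the GC content of the exons rose, with a Spearman rho of -0.659 across the 9839 genes with a GC value, which are not independent replicates. *Jchain*, with a GC content of 38.2%, lies at the 1.15th percentile of these genes and *Ccl28*, with 40.8%, at the 6.01st, while *Fcgrt*, with 55.8%, lies at the 80.4th. Removing the relation left *Ccl28* at 0.53, *Pigr* at -0.33, *Jchain* at -0.73 and *Fcgrt* at -0.79, which is no longer beyond 2-fold, and turned *Mzb1* from -0.17 to 0.13. The part of GC content in these differences was not tested.

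**Figure D3:**
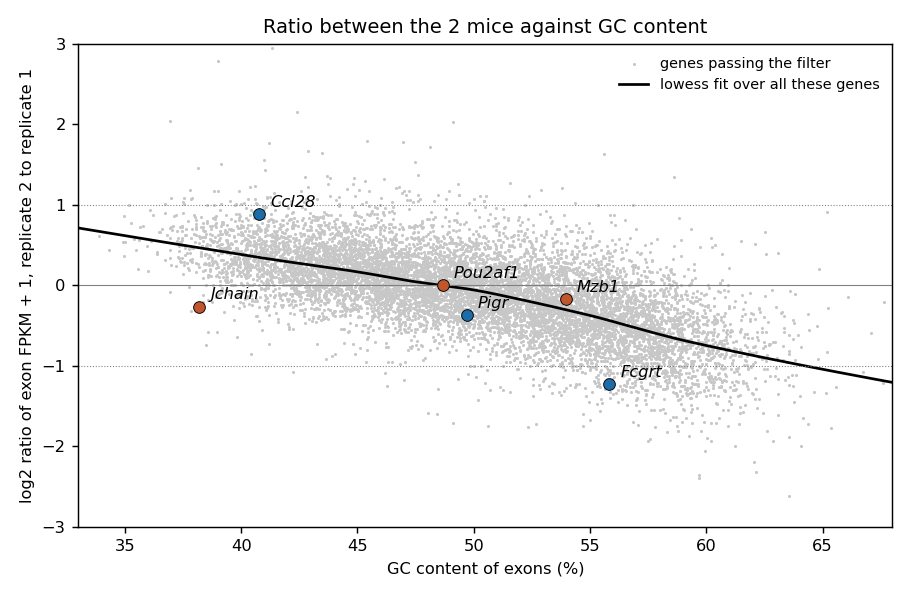
The log2 ratio of exon FPKM + 1 in replicate 2 to replicate 1 against exon GC content in percent, where grey points are the genes passing the filter, the black line is the lowess fit and the labelled points are the 6 genes of the set that passed. Dotted lines mark 2-fold, 3 genes lie outside the plotted range, and *Fcgrt* lies beyond the lower line while *Ccl28* lies above the fit and *Jchain* below it.

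Lists of cell type markers were read in the same RNA. Of 12 B cell genes 11 were below 1 in both mice, with *Ms4a1*, which encodes CD20, at 0.1 and 0.1, and 4 (*Pax5*, *Blk*, *Cr2* and *Fcmr*, named after their values were seen) were at 0 in both. The exception was *Cd72* at 2.9 and 4.4, which overlaps *Tesk1* (4.9 and 2.5) over 352 bp on the opposite strand, and this gene was singled out after its values were seen. Of 13 plasma cell genes, 9 were at 1 or more in both mice, beside 45.6% of all genes. *Prdm1*, given below, was not among the 9. *Tnfrsf13b* at 1.5 and 0.2, *Eaf2* at 0.7 and 1.0 and *Cd27* at 0.2 and 0.5 were not either. *Tnfrsf13b*, *Eaf2* and *Cd27* were named after their values were seen. *Xbp1*, the transcription factor of the secretory programme, was at 346.5 and 508.5, and *Fkbp11*, a peptidyl-prolyl isomerase of the secretory pathway, at 292.2 and 220.3. *Irf4*, a plasma cell factor, was at 2.8 and 5.0, *Sdc1*, which encodes CD138 and is also made by epithelia, at 6.4 and 3.8, and *Prdm1*, which encodes Blimp-1, at 0.9 and 0.4. *Xbp1* also serves other secretory cells, milk-making epithelium included. The cell of origin of these transcripts was not tested.

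All 10 T cell genes and all 6 lymph node genes were below 1 in both mice. *Ccl21a* was looked up by symbol and was not found among the genes with a usable symbol. Macrophage genes were at 1 or more in both mice for 8 of 10, beside 45.6% of all genes. They were led by *C1qa* at 44.8 and 19.6 and *C1qb* at 27.2 and 14.8. *C1qa* was beyond 2-fold and higher in replicate 1 (log2 ratio of -1.15, and -0.45 after the GC correction). The median of the 8 was -0.40, with 6 genes higher in replicate 1 and 2 genes higher in replicate 2. The largest ratio towards replicate 2 was that of *Mpeg1*, at 8.5 and 11.9. All 6 endothelial genes were at 1 or more in both mice too, led by *Cdh5* at 17.3 and 17.4 and *Pecam1* at 14.8 and 13.1. Their largest ratio towards replicate 1 was that of *Kdr*, at 14.0 and 9.6, and towards replicate 2 that of *Emcn*, at 1.4 and 2.3. The 8 epithelial genes were led by *Elf5* at 185.8 and 204.8, the transcription factor of the alveolar lineage, and by *Epcam* at 134.0 and 112.0. *Pigr* exceeded *Epcam* 3.76-fold in replicate 1 and 3.47-fold in replicate 2, whereas *Ccl28* did so 1.12-fold and 2.48-fold. Among the 8 epithelial genes, 3 were beyond 2-fold and higher in replicate 1, beside 4.82% of all genes tested. These were the keratin genes *Krt18* at 145.0 and 57.6, *Krt8* at 31.4 and 14.6 and *Krt19* at 10.9 and 4.0, the last pair named after their values were seen. Their exons had a GC content of 56.4%, 56.9% and 57.2%, and their log2 ratios after the GC correction were -0.84, -0.53 and -0.70. Of the 8 epithelial genes, 5 were higher in replicate 1 and 3 in replicate 2. The largest ratio of these towards replicate 2 was that of *Esrp1*, at 19.9 and 25.2 (log2 ratio of 0.33). The median log2 ratio of the 8 epithelial genes was -0.29, and -0.02 after the GC correction.

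**Figure D4:**
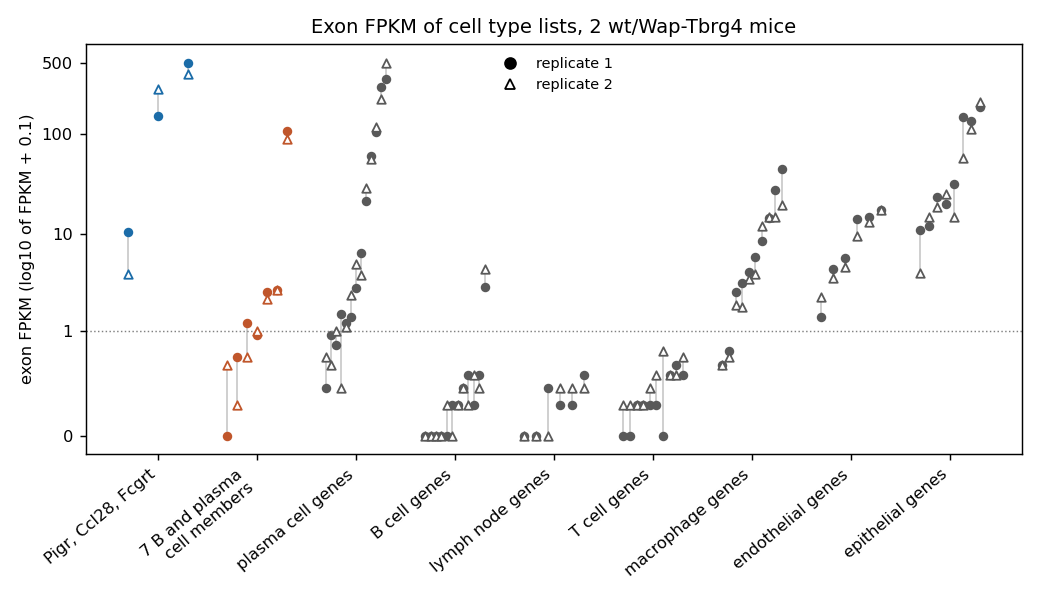
Exon FPKM of each gene of the cell type lists in the 2 mice, on a log10(FPKM + 0.1) axis with circles for replicate 1 and triangles for replicate 2, and a dotted line at 1 FPKM. The B cell, T cell and lymph node genes lie almost all below the line, and the epithelial genes lie above it.

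The partners of IgA transport and homing were measured as lists. Of 15 genes of transcytosis and of the regulation of *Pigr*, 14 passed the filter, as 9845 of all 20515 genes did. *B2m* alone was beyond 2-fold, as 5.9% of all genes tested were. It was higher in replicate 2, with a log2 ratio of 1.09. After scaling to the same sum it was at 0.03, where the median over all genes was -0.92. *Rab3d*, a Rab protein of secretory granules, was at 27.1 and 24.4, and *Nfkb1*, a subunit of NF-kappa B, at 9.0 and 5.9. *Fcamr*, an IgA and IgM receptor gene 780 bp from *Pigr*, was at 0.8 and 1.6 and was named after its values were seen. Of 15 genes of homing and plasma cell survival, 7 passed and none was beyond 2-fold, and 3 (*Tnfsf13*, *Il6* and *Ccr3*, also named after their values were seen) were at 0 in both mice. *Itgb1*, the beta-1 integrin, was highest at 45.8 and 55.4, *Cxcl12* was at 2.6 and 3.0, *Cxcr4*, its receptor, at 2.6 and 1.5, and *Ccl25*, the chemokine of gut homing, at 1.5 and 2.2.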

How the data were processed

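Total RNA-seq of 2 L10 glands was used. STAR, HTSeq and DESeq2 are named in the submitters' processing notes without versions. Reads were mapped to mm10, and the authors counted them on collapsed exons and introns and deposited FPKM with 1 decimal. The FPKM scale and the strand setting are not given in the sources used here. Depth is unknown, so no interval is given. Of 20550 genes, 35 without a usable symbol were left out.

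Log2 ratios used a pseudocount of 1 for exons and 0.1 for introns and a mean exon FPKM of at least 1. GC content came from RefSeq transcripts on GRCm38.p6 (9839 of 9845 genes) and was fitted by lowess over 30% of genes, tested on simulated data. Named genes are the 10 genes, the genes nearest to *Jchain* and *Pigr*, overlapping genes, *B2m*, *Xbp1*, *Sdc1*, *Prdm1*, *Irf4*, *Ms4a1* and *Ccl21a*, a further gene that is not reported here, and for each list the 2 highest and the largest ratio in each direction. The genes and lists were chosen with earlier results of these data known. Other pseudocounts, filters, scalings, GC correction and leaving out each mouse were tried. The labels call the samples replicates and do not say how many animals gave each. Python 3.11.15, numpy 2.4.6, pandas 2.3.3, statsmodels 0.14.6 and matplotlib 3.10.9 were used.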

Additional observations from a re-analysis of the deposited data

How the results depend on the processing

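With 2 mice and 1 genotype, no difference could be tested and depth is unknown. Leaving out a mouse and the geometric mean cannot move a level of 2 mice past their SD. Of the other alternatives, 12 of 27 moved a count by over 1.5-fold or a median or ratio past its tolerance. For single genes, 14 of 40 moved a value by over 0.1 for a log2 ratio or 1 SD for a level. These 40 leave out the log2 ratios of single genes after scaling to the same sum. That scaling took *Ccl28* from 0.88 to -0.18 and *Pou2af1* from 0.00 to -0.73, while the median over all genes went from -0.08 to -0.92. GC correction turned the log2 ratios of *Mzb1* from -0.17 to 0.13 and of *Ccr10* from -0.45 to 0.16. The 581 genes beyond 2-fold became 1092 with a pseudocount of 0.1, 231 at a mean FPKM of at least 10, 4195 (43.9% of 9557) with FPKM scaled to a sum of 1000000 and 188 (1.91%) after GC correction. The genes of the set beyond 2-fold went from 1 to 0 at a mean of at least 10, where *Fcgrt* was not tested, to 3 of 6 with scaling (*Pigr*, *Fcgrt*, *Jchain*), near the 43.9% of all genes, and to 0 after GC correction. The B and plasma cell median of -0.17 became -0.86 with scaling and 0.0024 after GC correction. The median of the transfer genes, -0.37, became 0.25 at a mean of at least 10, where *Pigr* and *Ccl28* alone remained, and -1.44 with scaling. The mean *Pigr* to *Jchain* ratio went from 4.52 to 5.45 after GC correction. The causes of the other changes were not tested. Leaving out either mouse gave a ratio of 4.35 to 4.69, and says nothing on stability with 2 mice. No paired analysis was possible because only 1 group has values.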

Other observations

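Genes of B cell receptor signalling and lymphoid transcription factors are further genes that B cells use. Of 10 signalling genes, 5 passed the filter, as 9845 of all 20515 genes did. *Cd81*, a tetraspanin present on many cell types, was at 137.5 and 158.5, *Lyn*, a Src family kinase, at 12.2 and 11.2, and *Syk*, a kinase, at 3.4 and 1.5. *Blnk* and *Pik3ap1*, named after their values were seen, were at 0 in both mice. Of 9 octamer and lymphoid transcription factors 4 passed, with *Ikzf1* at 7.3 and 7.9, *Ebf1* at 1.8 and 1.8, *Pou2f1*, the octamer factor of most cells, at 1.3 and 1.8, and *Bcl6* at 2.1 and 1.1, while *Spib*, named after its value was seen, was at 0 in both.

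The genes nearest in their 4 values to *Jchain* (log2 exon and intron FPKM in both mice) were *Ndufv3* at a distance of 0.50, *Apoe* at 0.57, *Npc2* at 0.58, *Sem1* at 0.66 and *Hint1* at 0.67. Nearest to *Pigr* were *Rpl4* at 0.57, *Eef2* at 0.69, *Cmtm6* at 0.97, *Ctsd* at 1.09 and *Cfd* at 1.13.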
